A study of Mus musculus with 62 samples.

Results

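The 36 genes described here mark the cells of blood vessels in the brain: 26 mark endothelial cells, which line the vessels, and 10 mark mural cells, the pericytes and smooth muscle cells that wrap them. They were chosen by symbol from known vascular markers, and are 36 of the 53801 gene identifiers in a count table of 62 RNA-seq libraries; each symbol matched 1 identifier. The libraries were made from CD11b+ cells of mice, which the series title calls microglia. CD11b is the myeloid integrin subunit encoded by Itgam, so vessel cells are not what this isolation selects.

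The study compared 4 genotypes at 4, 6 and 12 months of age. APPPS1_NLRP3 mice carry the APP/PS1 transgenes, which model Alzheimer's disease, and lack Nlrp3, a sensor of the inflammasome, and gave 4, 5 and 4 libraries at those ages. APPPS1 mice carry the transgenes with Nlrp3 intact and gave 3, 4 and 5 libraries. NLRP3 mice lack Nlrp3 and carry no transgenes, with 4 libraries at each age, and WT mice are wild type, with 4, 5 and 3 libraries. A further set at 12 months carries Mxo4 in its titles, with 3 APPPS1_NLRP3, 4 APPPS1, 3 NLRP3 and 3 WT libraries. The sources used here do not spell this tag out; the other 12-month libraries are called untagged. The promoters of the transgenes, the strain, the brain region and whether each library is a separate animal are not given in the sources used here, so every p-value here reflects the spread of libraries alone, which may be technical.

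Brain endothelial cells seal the vessel wall with tight junctions and move nutrients and waste through dedicated carriers, which together form the blood-brain barrier. Endothelial cells respond to vascular endothelial growth factor and angiopoietin through receptors on their surface, and pericytes are recruited to them by platelet-derived growth factor acting on Pdgfrb. Pericytes and smooth muscle cells share the vessel's outer side and differ in contractile protein, which smooth muscle holds in bulk.

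Levels are CPM, counts scaled to each library's total, and differences are log2 values ± standard error from edgeR's quasi-likelihood test, with p-values adjusted by Benjamini-Hochberg over all 19865 genes tested. A gene is said to have risen or fallen where its adjusted p was under 0.05. Whether groups overlapped is a description of the libraries, and the share of all genes without overlap was not computed. Libraries held a median of 18392142 and up to 27604393 counts. With 659 counts, APPPS1_6m replicate 21 stayed in the fit but gives no level here, which leaves 61 libraries for levels. NLRP3_12m replicate 45 held 1394435 counts, APPPS1_12m replicate 41 held 6187249 and the next lowest held 11484943. APPPS1_12m_Mxo4 replicate 56 stood apart from its group in several members, and some of the counts and differences it moves are also given without it. The Nlrp3 level was 0 to 2.16 CPM where the genotype lacks it (31 libraries) and 60.1 to 234 CPM where it is intact (30 libraries). By Xist and the Y-linked genes, 42 libraries read as female and 19 as male. All untagged 12-month libraries without Nlrp3 were male and all those with Nlrp3 were female.

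Promoters are shown for 3 endothelial genes, a growth factor receptor and 2 barrier carriers, and for 2 pericyte genes, as examples of each kind whose values are given below. Each line is the 250 bases before the transcription start in the GRCm38.p6 table of RefSeq, read 5′ to 3′ on the gene's strand. Capitals mark AGGAAG, a core of sites bound by ETS factors such as Erg, or CTTCCT, the same letters on the other strand. The windows are Flt1 at chr5:147726012-147726261 (minus strand), Slco1a4 at chr6:141856221-141856470 (minus strand), Slco1c1 at chr6:141524104-141524353 (plus strand), Rgs5 at chr1:169655251-169655500 (plus strand) and Kcnj8 at chr6:142571615-142571864 (minus strand).
Flt1: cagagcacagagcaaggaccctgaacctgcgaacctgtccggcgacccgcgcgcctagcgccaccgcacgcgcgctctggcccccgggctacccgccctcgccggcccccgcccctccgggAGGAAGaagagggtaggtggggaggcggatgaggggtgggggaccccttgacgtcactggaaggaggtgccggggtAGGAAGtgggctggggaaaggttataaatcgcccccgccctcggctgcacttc
Slco1a4: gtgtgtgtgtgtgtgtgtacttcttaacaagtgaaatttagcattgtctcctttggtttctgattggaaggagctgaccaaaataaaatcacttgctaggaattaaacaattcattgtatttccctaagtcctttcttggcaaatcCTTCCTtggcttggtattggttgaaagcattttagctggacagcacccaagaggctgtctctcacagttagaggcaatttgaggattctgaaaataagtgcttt
Slco1c1: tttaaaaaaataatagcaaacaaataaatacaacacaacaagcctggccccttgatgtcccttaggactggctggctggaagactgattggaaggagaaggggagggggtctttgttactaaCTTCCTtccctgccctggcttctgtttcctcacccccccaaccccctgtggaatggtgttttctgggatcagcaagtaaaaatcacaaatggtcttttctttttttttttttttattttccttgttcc
Rgs5: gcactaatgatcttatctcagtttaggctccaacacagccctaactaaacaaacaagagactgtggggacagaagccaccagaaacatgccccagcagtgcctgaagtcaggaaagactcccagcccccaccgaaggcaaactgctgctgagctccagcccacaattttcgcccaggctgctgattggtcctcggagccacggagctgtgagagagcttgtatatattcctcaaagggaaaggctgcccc
Kcnj8: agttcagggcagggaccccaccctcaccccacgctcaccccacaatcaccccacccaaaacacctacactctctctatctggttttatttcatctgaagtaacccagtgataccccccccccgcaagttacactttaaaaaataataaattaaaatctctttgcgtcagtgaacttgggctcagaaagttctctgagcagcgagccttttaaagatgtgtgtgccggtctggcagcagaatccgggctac

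Of the 36 members, 26 had at least 1 such window. AGGAAG on either strand was found in 14 of the 19 endothelial genes with a window (73.7%) and in 0 of the 7 mural genes with one. Over all genes in the table, 8734 of 27025 held it in any window (32.3%), and 9686 of all 32851 windows did (29.5%). A match is a description of these letters and not a site. Its absence from a mural window says nothing of a factor elsewhere in the gene.

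All 36 vascular genes were detected and all passed the filter on low counts. Per length of exon (FPKM, which allows genes to be compared), median levels over 61 libraries ran from 0.217 for Erg, an ETS transcription factor of endothelial identity, to 245 for Bsg, basigin, a chaperone of monocarboxylate carriers that many cell types make. Below Bsg on that scale came Itm2a, a membrane protein, at 38.5, Ly6c1 at 35.3, Ly6a at 24.6, Eng at 19.8 and Cldn5 at 12.4. The mural genes ran from 0.360 FPKM for Notch3 to 10.04 FPKM for Vtn, with Rgs5, a regulator of G-protein signalling that marks pericytes, at 5.09 FPKM.

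Among junction and surface proteins, Cldn5, the main claudin of brain tight junctions, had a median of 17.6 CPM and ranged over 2.15 to 123 CPM. Pecam1, an adhesion molecule that some leukocytes also carry, had 37.3 CPM, Esam, an endothelial adhesion molecule, 13.6 CPM, Emcn, the sialomucin endomucin, 6.64 CPM, and Cdh5, VE-cadherin, 3.23 CPM. Of the receptors, Flt1, a VEGF receptor, had 53.4 CPM, Kdr, the main signalling VEGF receptor, 22.2 CPM, Tek, the angiopoietin receptor, 16.3 CPM, and its partner Tie1 4.19 CPM. Eng, a TGF-beta co-receptor that macrophages can also make, had 80.1 CPM, and Adgrl4, an adhesion G-protein-coupled receptor, 29.7 CPM.

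The barrier carriers Slco1a4, an organic anion carrier, and Slco1c1, a carrier of thyroid hormone, had medians of 62.1 and 56.7 CPM. Bsg had 444 CPM with a range of 311 to 966 CPM, and Abcg2, an efflux pump, 87.2 CPM. Abcb1a, P-glycoprotein, had 14.8 CPM and Mfsd2a, a carrier of lysophospholipids with omega-3 fatty acids, 6.84 CPM. Vwf, von Willebrand factor, had 6.45 CPM, the secreted Egfl7 8.99 CPM, Nostrin, which guides nitric oxide synthase traffic, 4.12 CPM, the transcription factor Sox17 4.06 CPM and Erg 0.751 CPM, with 0 counts of Erg in 3 libraries. Ly6c1 and Ly6a, surface proteins that leukocytes can also carry, had 59.2 and 29.7 CPM, Itm2a 67.1 CPM and Tmem252, a membrane protein, 2.30 CPM.

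In pericyte genes, Vtn, vitronectin, had a median of 20.4 CPM over a range of 2.15 to 106 CPM. Pdgfrb had 5.97 CPM, Cspg4, the proteoglycan NG2 that oligodendrocyte precursors also make, 5.19 CPM, and Notch3, the Notch receptor of mural cells, 2.91 CPM. Kcnj8 and Abcc9, the 2 subunits of the ATP-sensitive potassium channel of pericytes, had 1.64 and 3.68 CPM. Acta2 and Tagln, contractile proteins of smooth muscle, had 9.71 and 4.18 CPM. Rgs5 had 23.2 CPM over a range of 2.34 to 119 CPM, and Higd1b 1.62 CPM.

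**Figure D1:**
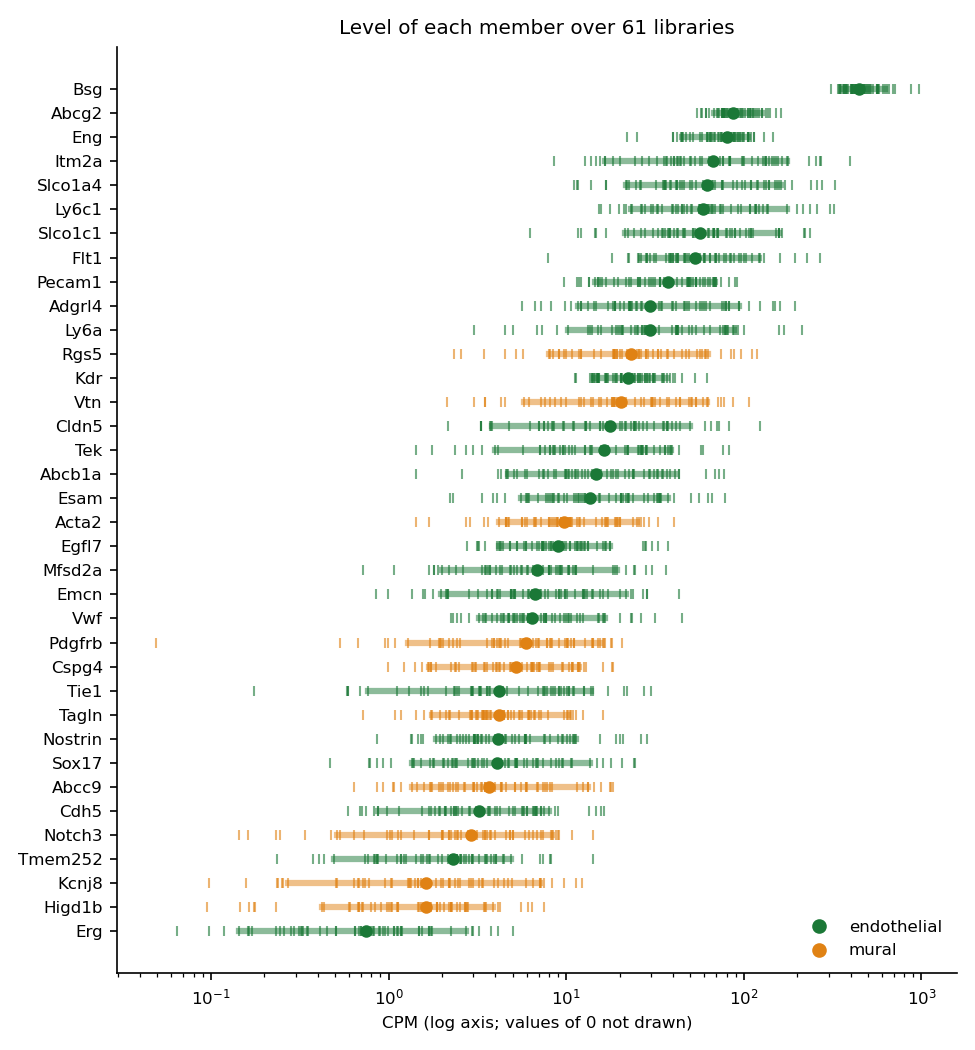
Each row is 1 gene and the x axis is its level in CPM on a log scale; small ticks are the 61 libraries, the dot is the median and the thick bar spans the 10th to the 90th percentile. Bsg lies to the right at a median of 444 CPM, and the other rows spread widely, as Cldn5 does over 2.15 to 123 CPM.

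Summed over 22 endothelial genes, leaving out Bsg, Ly6a, Ly6c1 and Itm2a because other cells make them, the level lay between 217 and 2007 CPM. The 10 mural genes summed to 21.8 to 322 CPM. A list of 10 microglial genes summed to 29572 to 46987 CPM in the same libraries. Eng and Pecam1, which other cells can also make, stayed in the endothelial sum, as did Abcg2. In APPPS1_12m_Mxo4 replicate 57 Eng was 44.9 CPM and Abcg2 72.7 CPM of a sum of 263 CPM. In WT_6m replicate 17 Eng was 106 CPM and Abcg2 163 CPM of a sum of 2007 CPM. The endothelial sum was 2.95 to 14.97 times the mural sum, with a median of 6.83. In bulk libraries such as these, fewer vessel cells and less RNA per vessel cell cannot be told apart. Of the 10 libraries with the highest endothelial sum and the 10 with the highest mural sum, 7 were shared, and of the lowest 10 by each sum, 8 were shared. WT_6m and NLRP3_6m libraries made up 7 of the highest 10 by either sum. Mxo4 libraries made up 7 of the lowest 10 by mural sum and 5 of the lowest 10 by endothelial sum.

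**Figure D2:**
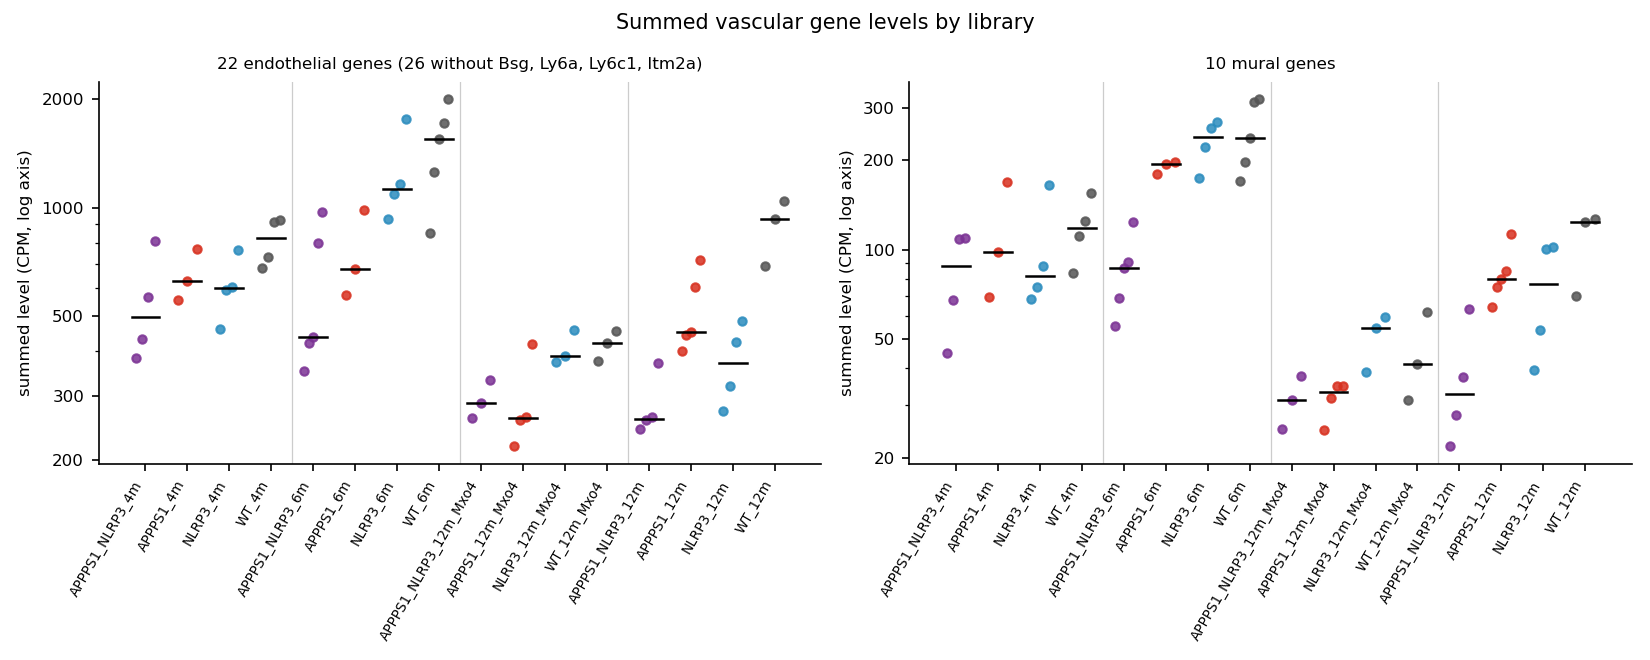
Summed level in CPM on a log axis for 22 endothelial genes (left) and 10 mural genes (right); dots are libraries, the short line is the group median, and groups run by age with the Mxo4 set left of the untagged 12-month set. WT_6m and NLRP3_6m have the highest medians in both panels, with libraries between 854 and 2007 CPM for the endothelial sum and between 171 and 322 CPM for the mural sum.

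Within groups, vascular genes of 1 kind varied together, and so did genes of different kinds. Correlations were computed across the 61 libraries on log2(CPM + 0.5) as deviations from the group mean, with p from 100000 permutations within groups, two-sided and adjusted over the 3 pairs tested. Cldn5 and Flt1, both endothelial, had a Pearson r of 0.831 (adjusted permutation p = 1.5e-05) and a Spearman rho of 0.795 (1e-05). Vtn and Rgs5, both mural, had r = 0.772 (adjusted permutation p = 1.5e-05) and rho = 0.755 (1e-05). Cldn5 and Rgs5, 1 of each kind, had r = 0.615 (adjusted permutation p = 3e-05) and rho = 0.631 (1e-05). The unadjusted p of the first 2 pairs, 1e-05, is the smallest these permutations can give.

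Without the 2 libraries farthest from the median, r was 0.879, 0.733 and 0.569 for the 3 pairs in that order. Within the second title number, which splits the libraries into 2 sets, r was 0.936 and 0.828 for Cldn5 with Flt1, 0.732 and 0.759 for Vtn with Rgs5, and 0.730 and 0.642 for Cldn5 with Rgs5. Over all pairs, as a description, the median r was 0.628 for 325 endothelial pairs, 0.420 for 45 mural pairs and 0.347 for 260 pairs of 1 endothelial and 1 mural gene. The smooth muscle genes had higher values with endothelial than with pericyte and smooth muscle genes: the median r of Acta2 was 0.724 with endothelial and 0.451 with mural genes, and that of Tagln 0.650 and 0.452. Abcc9 had a median r of 0.0671 with endothelial genes and 0.373 with mural genes, and Kcnj8 0.182 and 0.481. All points share their library's depth. Kcnj8 and Abcc9 held 3177 and 6012 counts over all libraries. Cdh5 held 5014 and had a median r of 0.6755 with endothelial genes, and Erg held 1194 and had 0.424. Eng held 86510 counts and had the lowest value of the endothelial genes, 0.300. The part of low counts in these values was not tested.

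Of genes outside the 36, those closest to Cldn5 by the same measure were Igfbp7 (r = 0.910), Prss23 (0.902), Slc16a4 (0.895), Lef1, Mpzl1, Slc9a3r2, Cyyr1, Tm4sf1, Cav1 and Cxcl12 (0.846). Those closest to Rgs5 were Cald1 (0.696), Gper1, Slc38a11, Ecm2, Casq2, Myl9, Mylk, Car4, Ptn and Atp13a5 (0.636). Among the 50 genes closest to each anchor, members included, 14 were members for Cldn5 and 7 for Rgs5.

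The first comparison set the Mxo4 libraries against the untagged libraries at 12 months, as the mean of the 4 genotypes. The 4 largest falls among the 36 genes were in pericyte genes: Kcnj8 fell by 1.74, Vtn by 1.48, Pdgfrb by 1.35 and Higd1b by 1.34 on the log2 scale. Of the 36 members 16 fell and none rose, where 11.5% of all genes tested fell. The 16 were 9 of 26 endothelial and 7 of 10 mural genes, 7 of 8 pericyte genes and 0 of 2 smooth muscle genes. The median difference was -1.10 over mural and -0.44 over endothelial genes, against -0.02 over all genes tested.

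Vtn lay at 2.15 to 14.3 CPM with a median of 6.20 in 13 Mxo4 libraries, against 3.48 to 53.8 CPM with a median of 19.7 in 16 untagged libraries. Its difference was -1.48 ± 0.22, adjusted p = 2.01e-06. Kcnj8, the channel pore, lay at 0.0976 to 1.64 CPM with a median of 0.505 in Mxo4 libraries, against 0.158 to 6.54 CPM with a median of 2.29 in untagged libraries. The ranges overlapped for both genes. The differences were -1.74 ± 0.31, adjusted p = 4.87e-05 for Kcnj8, -1.12 ± 0.20, adjusted p = 3.69e-05 for Rgs5 and -1.35 ± 0.24, adjusted p = 5.42e-05 for Pdgfrb. Abcc9 (-1.08 ± 0.24, adjusted p = 0.00086), Higd1b (-1.34 ± 0.26, adjusted p = 0.000159) and Notch3 (-0.87 ± 0.28, adjusted p = 0.0242) also fell. Cspg4 (-0.36 ± 0.26, adjusted p = 0.362), Acta2 (-0.08 ± 0.28) and Tagln (0.07 ± 0.23) did not pass the test.

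Endothelial genes that fell included Emcn, which lay at 0.850 to 5.17 CPM with a median of 3.17 in Mxo4 libraries, against 0.991 to 23.7 CPM with a median of 6.32 in untagged libraries. Its difference was -1.10 ± 0.21, adjusted p = 0.000119, and the differences were -0.90 ± 0.22, adjusted p = 0.00296 for Itm2a, -0.76 ± 0.22, adjusted p = 0.0105 for Slco1a4, -0.85 ± 0.26, adjusted p = 0.0169 for Cldn5 and -0.42 ± 0.14, adjusted p = 0.0234 for Pecam1. Slco1c1, Tek, Egfl7 and Nostrin fell too. Flt1 (-0.29 ± 0.20, adjusted p = 0.347), Bsg (-0.25 ± 0.10, adjusted p = 0.061) and Eng (0.05 ± 0.09, adjusted p = 0.795) did not pass. The endothelial sum was 217 to 459 CPM (median 373) in Mxo4 libraries and 242 to 1047 CPM (median 434) in untagged libraries, and the mural sum was 24.8 to 61.8 CPM (median 34.9) in Mxo4 libraries and 21.8 to 127 CPM (median 72.6) in untagged libraries. The endothelial sum was 8.79 times the mural sum at the median in Mxo4 libraries and 6.30 times in untagged libraries, with overlapping ranges. Eng, Abcg2, Flt1 and Kdr are in the endothelial sum and were not among the genes that fell. Their part in this ratio was not tested.

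Neuronal genes moved with the tag as well: 11 of 11 listed neuronal genes fell, with a median of -2.60, and their sum was 4.55 to 78.5 CPM (median 19.2) in Mxo4 libraries and 16.8 to 1031 CPM (median 117) in untagged libraries. Of the listed genes, 5 of 9 of oligodendrocytes and 3 of 10 of astrocytes fell, and 1 of 10 of microglia rose and 2 fell. The part of these cells in the vascular difference was not tested. The calls of 14 of the 16 members held whichever library was left out; Tek was lost without APPPS1_NLRP3_12m replicate 46 (adjusted p = 0.0602) or APPPS1_NLRP3_12m_Mxo4 replicate 54 (0.0594), and Notch3 without APPPS1_NLRP3_12m replicate 49 (0.0624). Within the libraries of second title number 2 alone, 7 members were called, 6 lower and 1 higher; there NLRP3_12m, WT_12m_Mxo4 and APPPS1_12m_Mxo4 are 1 library each, the last of them replicate 56. Without the 3 libraries that stand apart (APPPS1_6m replicate 21, NLRP3_12m replicate 45 and APPPS1_12m_Mxo4 replicate 56) 20 members were called.

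Genotype by genotype, members passed the test in APPPS1 and WT mice. In APPPS1 mice 24 members fell, 17 endothelial and 7 pericyte genes, where 3.73% of all genes fell; the median was -2.18 over mural and -1.50 over endothelial genes, against -0.03 over all genes. Kcnj8 lay at 0.684, 0.255, 0.239 and 0.0976 CPM in APPPS1 Mxo4 libraries, against 2.19, 2.38, 2.98, 2.45 and 3.23 CPM in APPPS1 untagged libraries. Vtn lay at 5.82, 3.48, 3.01 and 2.15 CPM in the Mxo4 libraries, against 12.7, 21.8, 30.02, 18.9 and 30.5 CPM in the untagged ones. Rgs5 lay at 5.72, 2.55, 2.34 and 4.54 CPM, against 21.997, 18.7, 28.05, 20.6 and 28.9 CPM in the untagged ones. The groups did not overlap for any of these 3 pericyte genes, every Mxo4 library being lower.

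The differences in APPPS1 mice were -3.09 ± 0.58, adjusted p = 0.00174 for Kcnj8, -2.73 ± 0.41, adjusted p = 6.74e-05 for Vtn and -2.70 ± 0.37, adjusted p = 2.59e-05 for Rgs5. Without replicate 56 they were -3.745 for Kcnj8, -3.081 for Vtn and -2.925 for Rgs5. Emcn lay at 1.61, 0.850, 2.15 and 1.56 CPM in Mxo4 libraries, against 6.64, 5.08, 9.79, 8.72 and 7.60 CPM in untagged libraries, with no overlap (-2.33 ± 0.39, adjusted p = 0.000464). Slco1a4 lay at 42.2, 11.7, 13.8 and 11.03 CPM, against 51.1, 44.97, 97.2, 76.2 and 62.1 CPM in untagged libraries. Its value of 42.2 CPM was that of replicate 56, far above the other Mxo4 libraries, and the difference was -1.84 ± 0.40, adjusted p = 0.00633, and -2.49 (adjusted p = 0.000917) without that library. Cspg4 (-0.11 ± 0.44), Acta2 (-0.55 ± 0.50) and Eng (0.04 ± 0.16) did not pass. Of the 24 calls, 12 held in every leave-out, and without APPPS1_12m_Mxo4 replicate 59 there were 12; Notch3, for example, was then lost (adjusted p = 0.0541). All 5 untagged APPPS1 libraries were female, while 3 of the 4 Mxo4 libraries were male; with sex as a term, 20 members were called. Without the 3 libraries that stand apart 26 were, while 15 were when the first title number entered the fit. Within second title number 2 alone 10 were called, 2 of them higher, but there replicate 56 is the only APPPS1 Mxo4 library. Of the listed genes, 2 of 8 of fibroblasts and 3 of 9 of monocytes also fell in APPPS1 mice, and 0 of 11 of neurons did; their part was not tested.

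In WT mice 4 members fell, where 0.161% of all genes did: Emcn (-2.14 ± 0.43, adjusted p = 0.0327), Nostrin (-2.03 ± 0.41, adjusted p = 0.0327), Pecam1 (-1.24 ± 0.29, adjusted p = 0.0442) and Vtn (-1.94 ± 0.46, adjusted p = 0.0467). Emcn lay at 3.83, 4.27 and 4.88 CPM in WT Mxo4 libraries, against 21.7, 12.8 and 23.7 CPM in WT untagged libraries. Slco1a4 lay at 36.05, 35.9 and 41.4 CPM, against 139, 91.2 and 158 CPM in untagged libraries. Neither gene's groups overlapped, but Slco1a4 was not among the 4 called. With 3 libraries on each side, groups can separate by chance. The median was -1.35 over endothelial and -1.04 over mural genes, against 0.00 over all genes. No call of the 4 held in every leave-out: none was left without WT_12m replicate 34 or any 1 of the 3 Mxo4 libraries, and 2 were left without WT_12m replicate 39. Another tool, DESeq2, called 12 members here, and 309 of 19086 genes in all, against 45 of 19865 by edgeR.

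In NLRP3 mice no member passed edgeR's test, where 6.85% of all genes did; 6 had an unadjusted p under 0.05, as had 20.5% of all genes, and DESeq2 called 0. Rgs5 lay at 9.05, 18.6 and 8.06 CPM in NLRP3 Mxo4 libraries, against 12.1, 10.04, 18.9 and 25.8 CPM in NLRP3 untagged libraries. Slco1a4 lay at 35.6, 49.6 and 32.2 CPM, against 21.8, 26.5, 43.9 and 46.2 CPM in untagged libraries. Both overlapped. The median was 0.33 over endothelial and -0.72 over mural genes, and 0.00 over all genes. Without NLRP3_12m replicate 42, 1 member was called.

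In APPPS1_NLRP3 mice no member passed edgeR's test either, where 1.18% of all genes did; 3 had an unadjusted p under 0.05, as had 13.4% of all genes, and DESeq2 called 0. Rgs5 lay at 9.70, 8.39 and 5.20 CPM in Mxo4 libraries, against 3.44, 8.05, 14.3 and 12.2 CPM in untagged libraries. Kcnj8 lay at 0.505, 0.273 and 0.236 CPM, against 0.158, 0.641, 1.41 and 0.777 CPM in untagged libraries. These groups overlapped for both genes, and the untagged APPPS1_NLRP3 libraries were themselves low in pericyte genes. The median was 0.42 over endothelial and -0.11 over mural genes, and -0.02 over all genes.

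**Figure D3:**
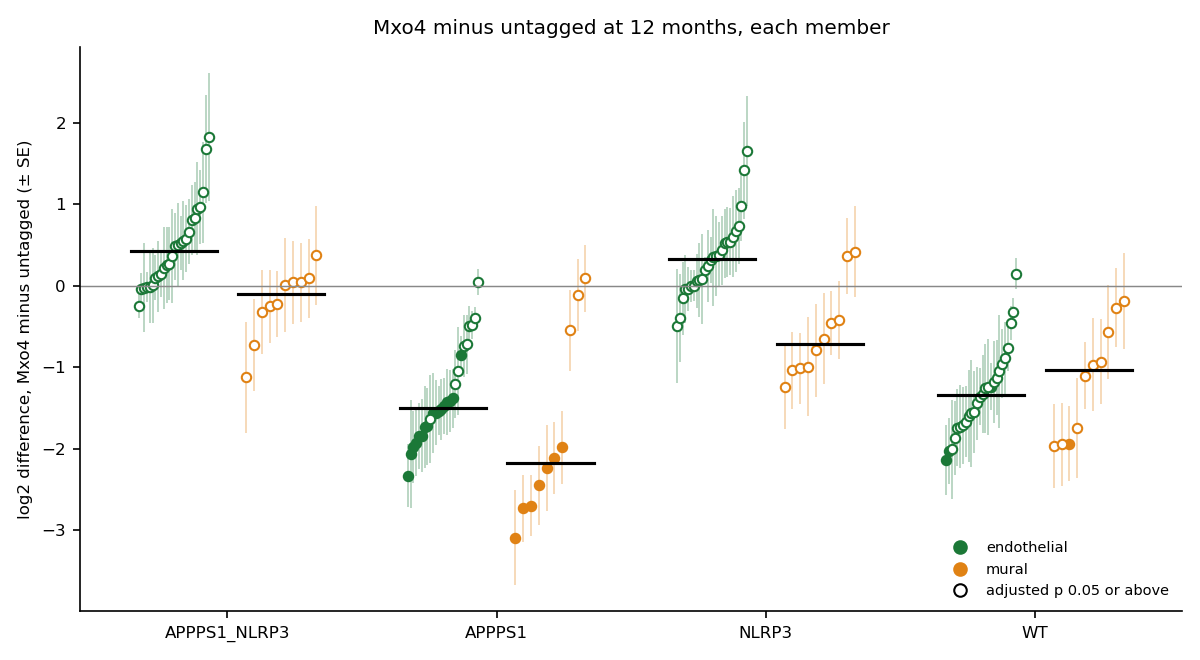
Each point is the log2 difference of 1 gene, Mxo4 minus untagged, with its standard error, in 4 genotypes; filled points have an adjusted p under 0.05 and the black line is the median of the kind. Filled points occur in APPPS1 (24) and WT (4) and in neither genotype without Nlrp3.

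The difference between these differences was tested directly. The tag difference in mice without Nlrp3 minus that in mice with Nlrp3, a comparison added after the data were seen, was higher in 14 members, all endothelial, where 0.352% of all genes were. The median was 1.84 over endothelial and 1.35 over mural genes, against -0.01 over all genes. Called members included Nostrin (2.27 ± 0.39, adjusted p = 0.00173), Adgrl4 (2.55 ± 0.43, adjusted p = 0.00145) and Emcn (2.27 ± 0.42, adjusted p = 0.00568). Among mural genes, Vtn was at 1.70 ± 0.44, adjusted p = 0.0583, and Rgs5 at 1.56 ± 0.40, adjusted p = 0.0558. The calls of Esam, Emcn, Adgrl4, Egfl7 and Nostrin held in every leave-out. The count was 5 without WT_12m_Mxo4 replicate 60, 7 without NLRP3_12m_Mxo4 replicate 51, 9 without WT_12m replicate 40, APPPS1_NLRP3_12m replicate 44 or APPPS1_NLRP3_12m_Mxo4 replicate 52, and 22 without APPPS1_12m_Mxo4 replicate 56. In the untagged set sex and Nlrp3 state cannot be told apart; with sex as a term in the fit 7 members were called. When the first title number entered the fit 3 were. The tag difference in transgenic mice minus that in non-transgenic mice was called for no member and for 0% of all genes by edgeR; no member had an unadjusted p under 0.05, 1511 genes did (7.61%), and DESeq2 called no member.

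The next comparison set transgenic mice (APPPS1_NLRP3 and APPPS1) against non-transgenic mice (NLRP3 and WT) at each age. At 4 months no member passed edgeR's test, where 0.0554% of all genes did; 2 members had an unadjusted p under 0.05, as had 5.75% of all genes, and DESeq2 called 0. Flt1 lay at 18.03 to 77.1 CPM with a median of 47.9 in transgenic libraries, against 25.7 to 85.1 CPM with a median of 57.4 in non-transgenic libraries, with overlap. Rgs5 lay at 11.8 to 58.2 CPM with a median of 23.4 in transgenic libraries, against 18.4 to 47.2 CPM with a median of 33.99 in non-transgenic libraries, also with overlap. The median was -0.41 over endothelial and -0.16 over mural genes, and 0.00 over all genes.

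At 6 months most endothelial genes and a smaller part of the mural genes were lower in transgenic mice. Of the 36 members 26 fell, 22 of 26 endothelial and 4 of 10 mural genes, where 5.67% of all genes fell. All 5 junction and surface genes, 5 of 6 receptors, 5 of 6 barrier carriers and both transcription factors fell, as did Rgs5, Higd1b, Kcnj8 and Tagln. The median was -1.09 over endothelial and -0.85 over mural genes, against -0.03 over all genes tested. The endothelial sum was 353 to 985 CPM (median 626) in transgenic libraries, against 854 to 2007 CPM (median 1261) in non-transgenic libraries. The mural sum was 55.5 to 198 CPM (median 108), against 171 to 322 CPM (median 238) in non-transgenic libraries. By group, the mural sum was 55.5 to 124 CPM in 5 APPPS1_NLRP3 libraries, 180 to 198 CPM in 3 APPPS1 libraries, 174 to 268 CPM in 4 NLRP3 libraries and 171 to 322 CPM in 5 WT libraries.

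Nostrin lay at 3.05 to 10.96 CPM with a median of 5.43 in 8 transgenic libraries at 6 months, against 9.05 to 28.6 CPM with a median of 19.1 in 9 non-transgenic libraries. Eng lay at 51.6 to 80.6 CPM with a median of 66.2 in transgenic libraries, against 81.6 to 145 CPM with a median of 106 in non-transgenic libraries. Rgs5 lay at 18.6 to 60.6 CPM with a median of 31.5 in transgenic libraries, against 54.4 to 119 CPM with a median of 84.6 in non-transgenic libraries. The ranges overlapped for Nostrin, did not overlap for Eng and overlapped for Rgs5. Of the endothelial genes, Eng varied least with the others within groups (median r 0.300). The differences were -1.29 ± 0.24, adjusted p = 8.68e-05 for Nostrin, -1.30 ± 0.26, adjusted p = 0.000272 for Ly6c1, -0.86 ± 0.17, adjusted p = 0.000292 for Pecam1 and -0.51 ± 0.12, adjusted p = 0.0019 for Eng. Mfsd2a (-1.21 ± 0.27, adjusted p = 0.000962), Slco1a4 (-1.10 ± 0.28, adjusted p = 0.00447), Rgs5 (-1.04 ± 0.24, adjusted p = 0.00167) and Higd1b (-1.13 ± 0.30, adjusted p = 0.00623) fell as well. Cspg4 was at 0.02 ± 0.32 and did not pass.

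Of those 26 calls 18 held in every leave-out. Flt1 was lost without APPPS1_6m replicate 22 (adjusted p = 0.0624) or NLRP3_6m replicate 27 (0.0721), Kcnj8 in 13 of 18 leave-outs and Tagln in 9. Cldn5 was lost without APPPS1_6m replicate 22 (0.0593). Within second title number 1 alone 5 members were called, where 631 of 21427 genes were, with a median over members of -1.09. Within number 2 alone 14 were called, where 1436 of 20377 genes were, with a median of -0.87. As reported, that median was -1.03 and 2710 of 19865 genes were called. In number 1, 1 of the 2 APPPS1_6m libraries is that of 659 counts. Listed fibroblast genes were lower at 6 months in transgenic mice too, with a median of -0.95, 1 of 8 called and a median sum of 11.6 CPM, against 23.4 CPM in non-transgenic mice, and choroid plexus genes had a median of -0.72 with 0 of 8 called. Their part in the vascular difference was not tested.

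**Figure D4:**
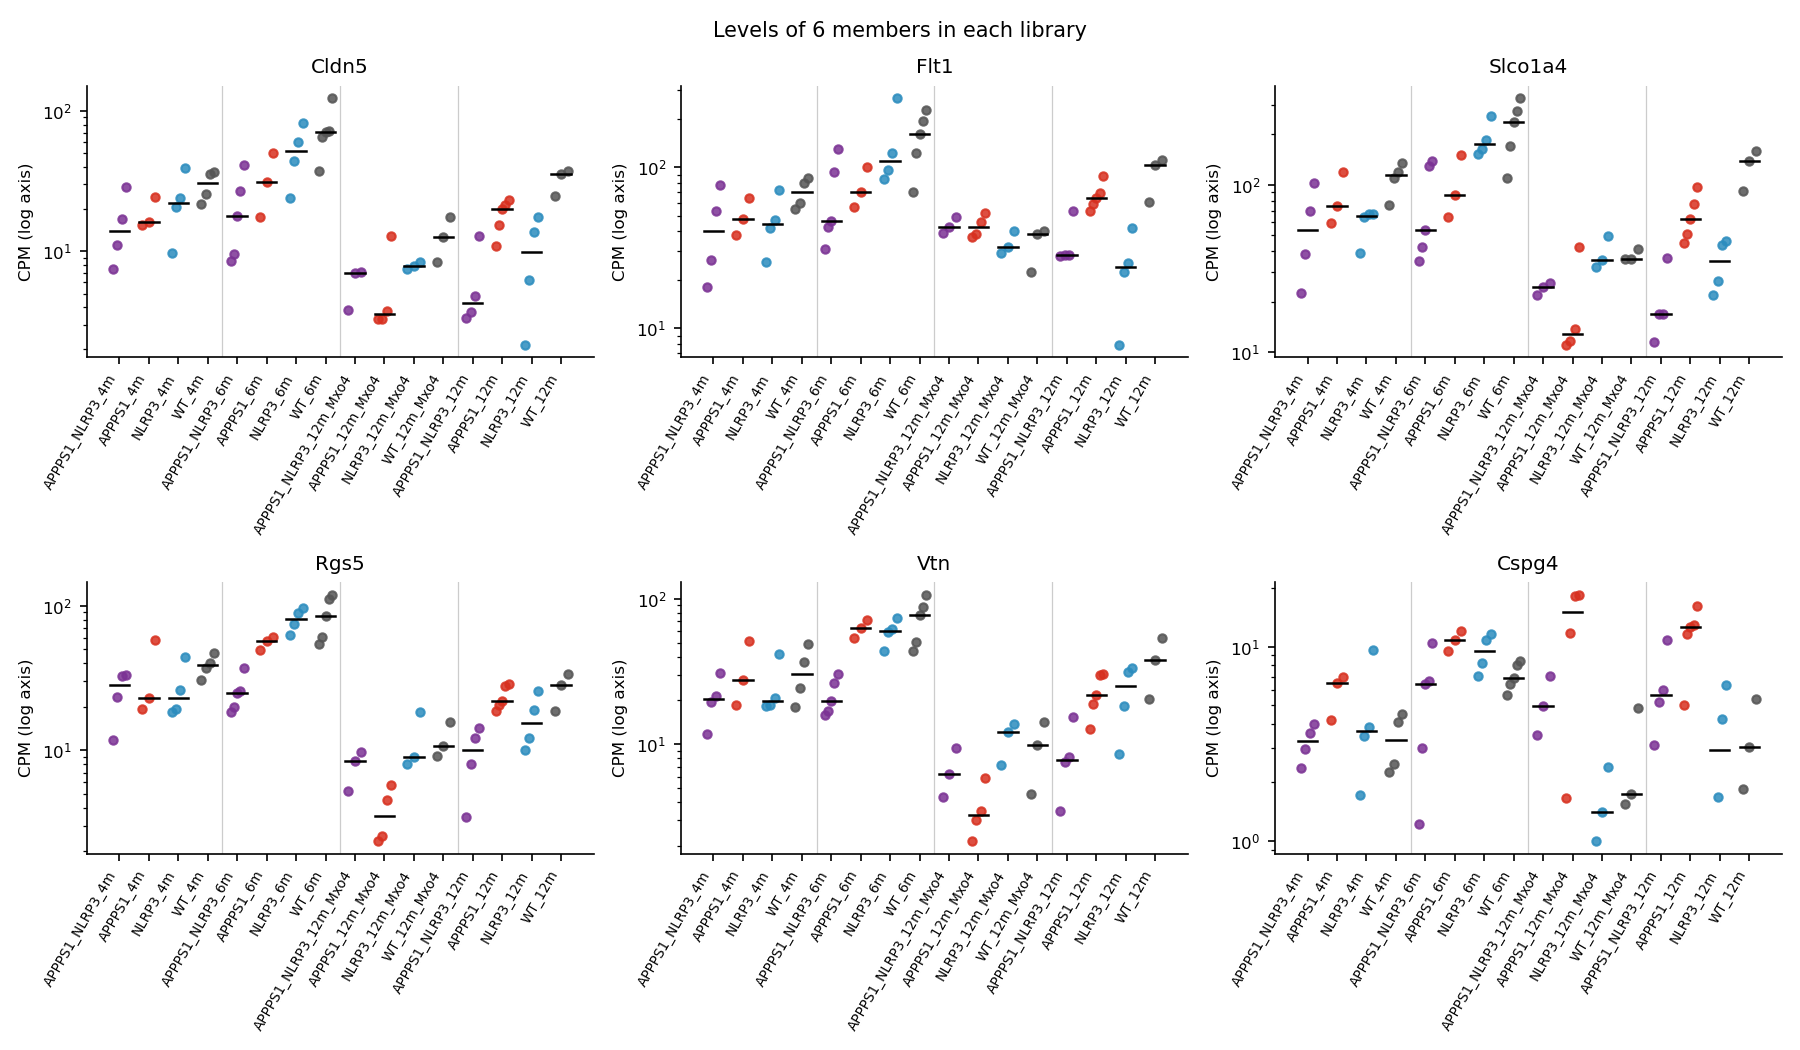
Levels of 6 genes in CPM on a log axis; dots are libraries, the short line is the group median, and groups run by age with the Mxo4 set left of the untagged set. Rgs5 and Vtn are lowest in APPPS1_12m_Mxo4 (2.34 to 5.72 and 2.15 to 5.82 CPM), and the group medians of Cspg4 are highest in APPPS1_12m_Mxo4 (14.996 CPM) and APPPS1_12m (12.5 CPM).

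At 12 months in untagged mice 12 members fell and 1 rose with the transgenes, where 12.3% of all genes fell and 13.8% rose. The median was -0.66 over endothelial and -0.73 over mural genes, against -0.06 over all genes. Pecam1 lay at 11.5 to 35.5 CPM with a median of 15.9 in 9 transgenic libraries, against 15.1 to 69.9 CPM with a median of 37.5 in 7 non-transgenic libraries. Its difference was -1.03 ± 0.18, adjusted p = 1.27e-05. Eng (-0.54 ± 0.12, adjusted p = 0.000659) and Pdgfrb (-1.25 ± 0.31, adjusted p = 0.00153) fell as well, and Cldn5 (-0.65 ± 0.34, adjusted p = 0.154) and Rgs5 (-0.36 ± 0.25, adjusted p = 0.3) did not pass. The calls of Pecam1, Emcn, Eng, Mfsd2a, Vtn, Pdgfrb and Cspg4 held in every leave-out. Without NLRP3_12m replicate 48 the count was 8, with the first title number as a term 5, and within second title number 1 alone, where WT_12m is 1 library, 3. Genes of other cells moved in the same comparison: of the listed genes 2 of 11 of neurons, 2 of 9 of oligodendrocytes and 2 of 8 of choroid plexus and ependyma fell, and 4 of 10 of astrocytes fell while 1 rose. The neuronal sum was 16.8 to 573 CPM (median 65.1) in transgenic libraries and 34.3 to 1031 CPM (median 247) in non-transgenic libraries, and the astrocyte sum 77.5 to 615 CPM (median 163) in transgenic and 183 to 1169 CPM (median 311) in non-transgenic libraries. The oligodendrocyte sum was 155 to 483 CPM (median 192) in transgenic and 167 to 1081 CPM (median 400.2) in non-transgenic libraries, and the choroid plexus sum 145 to 787 CPM (median 572) in transgenic and 128 to 2404 CPM (median 1387) in non-transgenic libraries. The part of these cells in the vascular difference was not tested.

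In the Mxo4 set 7 members fell and 1 rose with the transgenes, where 5.55% of all genes fell and 7.54% rose. The median was -0.59 over endothelial and -0.97 over mural genes, against -0.05 over all genes. Those that fell were Eng (-0.60 ± 0.13, adjusted p = 0.00108), Rgs5 (-1.04 ± 0.29, adjusted p = 0.0104), Kcnj8 (-1.61 ± 0.47, adjusted p = 0.0156), Higd1b, Vtn, Pecam1 and Emcn. Eng lay at 39.8 to 74.7 CPM with a median of 44.6 in 7 transgenic libraries, against 65.02 to 93.3 CPM with a median of 80.01 in 6 non-transgenic libraries. Within groups, Eng was the endothelial gene that varied least with the others (median r 0.300). The calls of Eng and Cspg4 held in every leave-out. Rgs5 was lost without NLRP3_12m_Mxo4 replicate 51 (adjusted p = 0.0795) and Kcnj8 without NLRP3_12m_Mxo4 replicate 50 (0.0708). The count was 20 without APPPS1_12m_Mxo4 replicate 56, 4 without NLRP3_12m_Mxo4 replicate 51, and 5 without APPPS1_NLRP3_12m_Mxo4 replicate 53 or 54, APPPS1_12m_Mxo4 replicate 58 or 59, or WT_12m_Mxo4 replicate 61. With the first title number as a term the count was 5. Genes of other cells moved here too: 3 of 10 listed astrocyte genes fell and 1 rose, and 3 of 9 oligodendrocyte, 3 of 5 erythroid, 1 of 8 fibroblast and 0 of 9 monocyte genes fell. The astrocyte sum was 63.5 to 242 CPM (median 107) in transgenic libraries and 144 to 253 CPM (median 228) in non-transgenic libraries, and the erythroid sum 7.22 to 46.8 CPM (median 25.7) in transgenic and 31.8 to 162 CPM (median 79.8) in non-transgenic libraries. The monocyte sum was 34.2 to 74.4 CPM (median 43.2) in transgenic and 74.6 to 98.96 CPM (median 79.6) in non-transgenic libraries, and the fibroblast sum 1.51 to 8.75 CPM (median 2.49) in transgenic and 3.84 to 9.66 CPM (median 5.71) in non-transgenic libraries. Their part in the vascular difference was not tested. The tag and transgene comparisons at 12 months share these libraries.

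Cspg4 rose with the transgenes at 12 months, where the other mural genes that passed fell. It lay at 6.01, 5.19, 10.7 and 3.11 CPM in untagged APPPS1_NLRP3 libraries at 12 months and 12.5, 12.96, 16.2, 11.6 and 5.01 CPM in APPPS1 libraries, against 1.69, 0, 6.35 and 4.22 CPM in NLRP3 and 3.05, 5.39 and 1.86 CPM in WT libraries. The value of 0 is that of the shallow NLRP3_12m replicate 45. The difference was 1.44 ± 0.35, adjusted p = 0.00174. In the Mxo4 set it lay at 4.92, 3.49 and 7.09 CPM in APPPS1_NLRP3 and 1.66, 18.2, 18.5 and 11.8 CPM in APPPS1 libraries, against 0.993, 1.41 and 2.39 CPM in NLRP3 and 1.74, 1.55 and 4.83 CPM in WT libraries. The lowest APPPS1 value, 1.66 CPM, is that of replicate 56, and the difference was 2.08 ± 0.40, adjusted p = 0.000124, and 2.25 (adjusted p = 4.54e-06) without that library. None of 6 other listed genes of oligodendrocyte precursors rose: at 12 months 2 of 6 fell, with a median of -1.04, and in the Mxo4 set 0 of 6 passed, with a median of -0.57. When the first title number was added as a term, the adjusted p of Cspg4 in untagged mice was 0.0652, and within second title number 2 alone, where replicate 56 is the only APPPS1 Mxo4 library, it was 0.697 in the Mxo4 set.

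**Figure D5:**
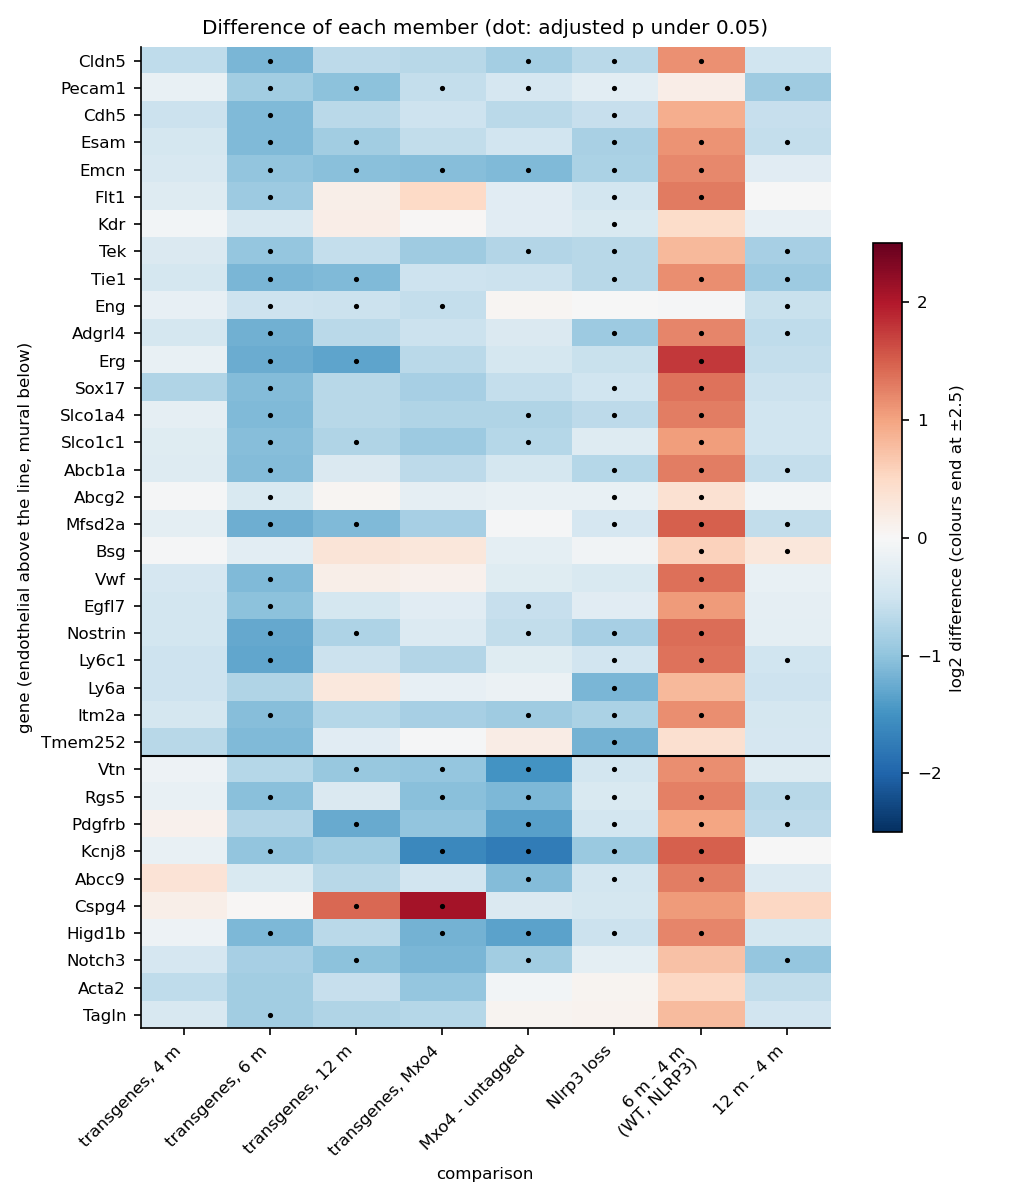
Colours give the log2 difference of each of 36 genes (rows, endothelial above the line and mural below) in 8 comparisons (columns), ending at ±2.5; a black dot marks an adjusted p under 0.05. The transgene column at 6 months holds 26 dots, all on lower values, the column of 6 minus 4 months holds 25 dots on higher values, and Cspg4 is higher in the 2 transgene columns at 12 months.

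Loss of Nlrp3, as the mean over ages, tag and transgene states, went with lower vascular genes: 26 of 36 members fell, 20 endothelial and 6 pericyte genes, where 7.23% of all genes fell. The median was -0.57 over endothelial and -0.44 over mural genes, against 0.00 over all genes. Adgrl4 lay at 5.66 to 145 CPM with a median of 22.8 in 31 libraries without Nlrp3, against 9.86 to 194 CPM with a median of 46.3 in 30 libraries with it. Ly6a lay at 3.03 to 92.7 CPM with a median of 24.5 without Nlrp3, against 10.3 to 212 CPM with a median of 56.9 with it. The ranges overlapped for both. The differences were -0.84 ± 0.13, adjusted p = 4.03e-06 for Nostrin, -0.91 ± 0.14, adjusted p = 5.17e-06 for Adgrl4, -1.15 ± 0.19, adjusted p = 1.56e-05 for Ly6a and -1.18 ± 0.21, adjusted p = 7.62e-05 for Tmem252. Esam (-0.82 ± 0.14, adjusted p = 2.13e-05), Emcn (-0.79 ± 0.14, adjusted p = 3.76e-05) and Kcnj8 (-0.93 ± 0.20, adjusted p = 0.000844) fell as well. Eng (-0.01 ± 0.06, adjusted p = 0.962), Acta2 (0.07 ± 0.19) and Tagln (0.09 ± 0.16) did not pass. Ly6a also split within 1 group: it was 92.7 and 90.3 CPM in NLRP3_6m replicates 26 and 27, against 19.6 and 18.2 CPM in replicates 32 and 33. Ly6c1 was 136, 323, 215 and 174 CPM in those libraries in that order. The cause of this split was not tested.

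At 12 months the Nlrp3 difference differed between the Mxo4 and untagged sets in 14 endothelial members: the test of the tag difference by Nlrp3 state above is also the test of the Nlrp3 difference by tag, and the mean over all libraries pools both sets. In the Mxo4 set the sum of 22 endothelial genes was 261 to 332 CPM in APPPS1_NLRP3, against 217 to 418 CPM in APPPS1 libraries, and 373 to 459 CPM in NLRP3, against 377 to 456 CPM in WT libraries, with overlap in both pairs. In the untagged set it was 242 to 372 CPM in APPPS1_NLRP3, against 400.4 to 718 CPM in APPPS1 libraries, and 273 to 485 CPM in NLRP3, against 688 to 1047 CPM in WT libraries, with no overlap in either pair. The Nlrp3 difference within the Mxo4 set alone was not tested.

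Of these calls 17 held in every leave-out; those of Pecam1, Mfsd2a, Rgs5, Pdgfrb and Abcc9 were each lost in 25 to 45 of 62 leave-outs. When the first title number was added as a term 12 members were called, with sex as a term 23, and without the 3 libraries that stand apart 18. In untagged mice at 12 months sex and Nlrp3 state cannot be told apart. Listed genes of border-associated macrophages, which sit beside vessels, were higher: 7 of 10 rose, with a median of 0.46. Neuronal genes had a median of 0.59 with 0 of 11 called. The part of these cells in the vascular difference was not tested.

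Vascular genes were higher at 6 than at 4 months in mice without the transgenes. From 4 to 6 months in WT and NLRP3 mice, a comparison added after the data were seen, 25 members rose, 19 endothelial and 6 pericyte genes, and none fell, where 2.42% of all genes rose. The median was 1.15 over endothelial and 1.11 over mural genes, against 0.00 over all genes. Mfsd2a lay at 10.4 to 36.6 CPM with a median of 24.01 in 9 libraries at 6 months, against 4.88 to 10.96 CPM with a median of 8.34 in 8 libraries at 4 months. Rgs5 lay at 54.4 to 119 CPM with a median of 84.6 at 6 months, against 18.4 to 47.2 CPM with a median of 33.99 at 4 months. The ranges overlapped for Mfsd2a and did not overlap for Rgs5. The differences were 1.50 ± 0.26, adjusted p = 0.000433 for Mfsd2a, 1.40 ± 0.23, adjusted p = 0.000223 for Nostrin, 1.26 ± 0.24, adjusted p = 0.00102 for Rgs5, 1.29 ± 0.26, adjusted p = 0.00259 for Flt1 and 1.77 ± 0.40, adjusted p = 0.0063 for Erg. All 6 barrier carriers rose, and Eng (-0.02 ± 0.12) and Acta2 (0.52 ± 0.34) did not pass.

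Of these calls 21 held in every leave-out. Within second title number 1 alone 0 members were called, where 1 of 21427 genes was, with a median over members of 1.01. Within number 2 alone 12 were called, where 287 of 20377 genes were, with a median of 1.09. As reported, that median was 1.15 and 600 of 19865 genes were called. The listed choroid plexus and ependyma genes had a median of 1.04 with 0 of 8 called and summed to 739 to 5381 CPM (median 2081) at 6 months, against 705 to 1378 CPM (median 1166) at 4 months. Fibroblast genes had a median of 0.86 with 0 of 8 called. Their part in the vascular difference was not tested.

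In APPPS1_NLRP3 and APPPS1 mice the same step in age, also added after the data were seen, gave 1 member that rose, Sox17 (1.03 ± 0.32, adjusted p = 0.0297), where 5.28% of all genes rose. That call was lost in 6 of 16 leave-outs, among them without APPPS1_6m replicate 23 (adjusted p = 0.145) and without APPPS1_4m replicate 3 (0.0924). Rgs5 lay at 18.6 to 60.6 CPM with a median of 31.5 at 6 months, against 11.8 to 58.2 CPM with a median of 23.4 at 4 months. The median was 0.48 over endothelial and 0.37 over mural genes, and 0.02 over all genes. The step in transgenic mice minus that in non-transgenic mice was below 0 for all 36 members, with a median of -0.62 against -0.03 over all genes, and no member passed edgeR's test, where 1.32% of all genes did. Of the members 9 had an unadjusted p under 0.05, as had 11.5% of all genes, and DESeq2 called 0. The 6-month transgene comparison and both steps in age share their 6-month libraries.

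From 4 to 12 months in untagged mice, as the mean of the 4 genotypes, 12 members fell and 1 rose, where 12.2% of all genes fell and 13.8% rose. Pecam1 lay at 11.5 to 69.9 CPM with a median of 24.8 at 12 months, against 38.2 to 69.9 CPM with a median of 51.7 at 4 months. Eng lay at 22.1 to 90.4 CPM with a median of 63.3 at 12 months, against 78.8 to 130.5 CPM with a median of 94.7 at 4 months. The ranges overlapped. The differences were -0.89 ± 0.13, adjusted p = 4.59e-07 for Pecam1, -0.55 ± 0.09, adjusted p = 2.91e-06 for Eng, -0.69 ± 0.18, adjusted p = 0.00274 for Rgs5 and -0.96 ± 0.25, adjusted p = 0.00297 for Notch3, while Bsg rose (0.28 ± 0.09, adjusted p = 0.017). The median was -0.50 over endothelial and -0.46 over mural genes, against -0.02 over all genes. The calls of Pecam1, Tek, Tie1, Eng, Bsg, Rgs5 and Notch3 held in every leave-out. Without APPPS1_NLRP3_12m replicate 46 the count was 22, and within second title number 1 alone, where WT_12m is 1 library, it was 2. All 4-month libraries were female; with sex as a term 16 members were called and Bsg was not (adjusted p = 0.0665). Listed genes of border-associated macrophages fell in 8 of 10 cases, those of fibroblasts in 3 of 8, of choroid plexus and ependyma in 2 of 8 and of T and NK cells in 1 of 4. The border-associated macrophage sum was 172 to 919 CPM (median 389) at 12 months and 364 to 1327 CPM (median 705) at 4 months, and the fibroblast sum 1.86 to 14.1 CPM (median 6.60) at 12 months and 7.31 to 19.1 CPM (median 11.8) at 4 months. The choroid plexus sum was 128 to 2404 CPM (median 576) at 12 months and 365 to 1457 CPM (median 1152) at 4 months, and the T and NK cell sum 2.38 to 9.32 CPM (median 4.90) at 12 months and 5.47 to 13.998 CPM (median 9.27) at 4 months. Their part in the vascular difference was not tested.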

How the data were processed

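RNA-seq measured CD11b+ cells in 62 libraries; per the labels, total RNA (10 ng) was made into libraries with the SMART-Seq kit in 2 batches and read in pairs on a HiSeq. The deposited values are raw counts per gene; per the submitters' processing notes, reads passed through Trimmomatic, TopHat and HTSeq on mm10, with versions not given in the sources used here. Whether counting used strand is not given either. The members, lists and tests were chosen with earlier results of these data known. Identifiers were named from GENCODE vM21 (53706 of 53801 had a symbol).

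One edgeR model (4.0.16, R 4.3.3) held a term per group and the second title number, with TMM scaling and a filter on low counts (minimum 10, total 15) that left 19865 genes. Each title holds 3 numbers whose meaning is not given in the sources used here; the third serves as the replicate number. Leave-one-out refits reused the dispersion trend of the full fit. DESeq2 (1.42.0) and median-of-ratios scaling left out the library of 659 counts. The standard error is the size of the log2 difference over the root of F. Levels use libraries of at least 100000 counts. Sex was read from Xist (at least 100 CPM) and Y-linked genes (at least 50 CPM). All 36 members are reported; genes outside them are named where they have the smallest adjusted p of their list or the highest correlation with Cldn5 or Rgs5. The test was also tried on simulated counts, in which groups differed only in a set of changed genes and neither title number had an effect. The changed genes were drawn above a floor of counts, so the trial does not cover changes in genes below it. No result here rests on that trial.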

Additional observations from a re-analysis of the deposited data

Results flagged for a closer look

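Single libraries stood far from the rest of their group in 7 of 110 groups of values tested, where chance flags about 1 in 20 groups. APPPS1_NLRP3_12m replicate 46 was high for Cldn5 (12.9 CPM), Flt1 (53.6 CPM) and Pdgfrb (4.20 CPM). APPPS1_12m_Mxo4 replicate 56 was high for Cldn5 (12.9 CPM) and Slco1a4 (42.2 CPM). NLRP3_4m replicate 8 stood apart for Slco1a4 (39.2 CPM) and NLRP3_4m replicate 15 for Vtn (41.8 CPM).

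The tag difference, Mxo4 minus untagged, differed between mice without and with Nlrp3 in 14 endothelial genes by edgeR's test of the difference itself. The differences between these differences, on the log2 scale, were 2.97 for Tmem252, 2.67 for Ly6a, 2.57 for Tie1, 2.55 for Adgrl4, 2.37 for Sox17, 2.27 for Emcn, 2.27 for Nostrin, 2.21 for Esam, 2.06 for Tek, 2.04 for Slco1a4, 1.88 for Abcb1a, 1.87 for Itm2a, 1.74 for Egfl7 and 1.73 for Ly6c1. In the untagged libraries sex and Nlrp3 state cannot be told apart.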

How the results depend on the processing

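The replicate number, the third in each title, is different in every library and pairs none. Libraries of different groups share first title numbers, whose meaning is not given in the sources used here, and that number was tried as a block. Of 192 values under settings other than leaving out a library, 161 were unchanged by the rule set for their kind. The cause of the rest was not tested. A count of members was unchanged if it equalled the reported count or if their ratio stayed within a set limit. Counts of 0 that stayed at 0 are therefore among the 161. A sum was unchanged if it moved by no more than the pooled standard deviation within groups, and a pair if r kept its sign and side of the threshold. Counts labelled unchanged can still differ: Nlrp3 loss gave 26 members as reported and 18 without the 3 libraries that stand apart. Over all genes, calls with that block went from 45 to 8 (tag in WT), 1290 to 222 (tag in APPPS1) and 5186 to 3398 (transgenes at 12 months). They went from 2599 to 2202 (transgenes in the Mxo4 set), 2426 to 1897 (Nlrp3 loss), 1743 to 1163 (6 minus 4 months in transgenic mice) and 80 to 12 (tag by Nlrp3). Within either second title number the calls over all genes changed too. With the transgenes at 6 months they were 631 in number 1 and 1436 in number 2, against 2710 as reported. For 6 minus 4 months without transgenes they were 1 and 287, against 600. The numbers that follow are members called unless all genes are named. With that block they were 1 (tag in WT), 15 (tag in APPPS1), 5 (transgenes at 12 months), 5 (transgenes in the Mxo4 set), 12 (Nlrp3 loss), 0 (6 minus 4 months in transgenic mice) and 3 (tag by Nlrp3). Some groups are 1 library within a second title number (WT_12m and NLRP3_12m_Mxo4 in number 1; APPPS1_4m, NLRP3_12m, WT_12m_Mxo4 and APPPS1_12m_Mxo4, its replicate 56, in number 2), so values there can rest on 1 library. Within number 1 they were 0 (tag in WT), 5 and 3 (transgenes at 6 and 12 months), 2 (12 minus 4 months) and 0 (6 minus 4 months without transgenes). Within number 2 they were 7 (tag, mean), 0 (tag in WT), 10 (tag in APPPS1), 1 (tag by transgene), 14 (transgenes at 6 months), 0 (transgenes in the Mxo4 set), 12 and 0 (6 minus 4 months without and with transgenes). There Notch3 in APPPS1 mice with the tag (0.19) and Higd1b with the transgenes in the Mxo4 set (0.088) had the opposite sign, with replicate 56 as the only APPPS1_12m_Mxo4 library. The tag in WT mice gave 2 with no second-number term, 7 with no filter, 2 with median-of-ratios scaling and 12 by DESeq2. Over all genes these settings called 20, 68, 12 and 309 in that order, against 45 as reported. The step of 6 minus 4 months in transgenic mice gave 2 with sex as a term, 3 without the 3 libraries that stand apart and 4 by DESeq2. Tag by Nlrp3 gave 7 with sex and 22 by DESeq2, and the transgenes in the Mxo4 set gave 20 without those 3 libraries. Over all genes that step called 1995, 2103 and 2310, against 1743 as reported. Tag by Nlrp3 called 22 and 252 of all genes, against 80, and the transgenes in the Mxo4 set 3908, against 2599. The transgene difference of the endothelial sum in the Mxo4 set was -0.20, and -0.52 without Bsg, Ly6a, Ly6c1 and Itm2a. Leaving out 1 library gave 15 to 19 (tag, mean), 0 to 3 (WT), 0 to 1 (NLRP3), 12 to 27 (APPPS1), 5 to 22 (tag by Nlrp3), 18 to 28 (transgenes at 6 months), 8 to 18 (12 months), 4 to 20 (Mxo4 set), 19 to 28 (Nlrp3 loss), 9 to 22 (12 minus 4 months), 21 to 26 and 0 to 2 (6 minus 4 months without and with transgenes), and 0 for the tag in APPPS1_NLRP3, the tag by transgene, the transgenes at 4 months and the step of 6 minus 4 months by transgene. Number 1 alone could not be fitted where APPPS1_NLRP3_12m_Mxo4 enters, since that group holds number 2 only. Depth limits the lowest genes, such as Erg and Kcnj8.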

Other observations

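Vascular genes outside the 36 were counted from lists of 24 further endothelial, 14 further mural (13 tested) and 6 leukocyte adhesion genes (4 tested). In the Mxo4 minus untagged mean, 6 further endothelial and 4 further mural genes fell, where 11.5% of all genes did. In APPPS1 mice 13 and 4 fell, where 3.73% of all genes did. There the mural Atp13a5 was at -3.81 ± 0.54, adjusted p = 2.83e-05 and the endothelial Igfbp7 at -1.52 ± 0.34, adjusted p = 0.00838. With the transgenes at 6 months 15 further endothelial genes fell and 1 rose, where 5.67% of all genes fell. Slc7a5, an amino acid carrier of the barrier, was at -0.68 ± 0.12, adjusted p = 4.93e-05, and Cd34, a surface sialomucin that other cells also carry, at 0.60 ± 0.14, adjusted p = 0.00144. From 4 to 6 months in WT and NLRP3 mice 13 rose, where 2.42% of all genes did, among them Slc2a1, the glucose carrier of the barrier (1.04 ± 0.14, adjusted p = 1.20e-05). With loss of Nlrp3 15 fell, where 7.23% of all genes did, among them Robo4 (-0.93 ± 0.20, adjusted p = 0.000964). There 2 further mural and 0 leukocyte adhesion genes fell, while 2 leukocyte adhesion genes rose.

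With the transgenes at 12 months 4 of 24 further endothelial genes fell and 4 rose, where 12.3% of all genes fell and 13.8% rose. In the Mxo4 set 1 fell and 3 rose, where 5.55% of all genes fell and 7.54% rose. Sox7, a transcription factor related to Sox17, had the smallest adjusted p of that list in both sets (3.13 ± 0.42, adjusted p = 7.80e-08 in untagged mice and 4.02 ± 0.47, adjusted p = 6.03e-09 in the Mxo4 set). Sox17 was at -0.69 ± 0.32, adjusted p = 0.105 in untagged mice and -0.83 ± 0.36, adjusted p = 0.127 in the Mxo4 set.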
